A study of Mus musculus with 24 samples.

Results

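The 8 genes Wwox, Fhit, Lrp1b, Csmd1, Macrod2, Magi2, Auts2 and Immp2l belong to the longest protein-coding genes of the mouse genome and are grouped here as very long genes at common fragile sites. Taken for each gene were all 100 kb bins that lay wholly or partly in its body in the mm10 build, which gave 126 of the 27268 bins of the table, between 10 bins for Wwox and Immp2l and 22 for Lrp1b. The 126 bins were all tested, and each gene was set against the 10 bins on each side of it, 160 bins in all. The rule that took the bins used gene positions alone, but the genes were listed with earlier results of these data known. Whether these loci were fragile in the cells studied was not measured.

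Chromatin immunoprecipitation and sequencing had been done on mouse embryonic fibroblasts (MEFs) of the C57BL6 strain, with an antibody to the histone variant H2AX, with an antibody to its phosphorylated form gH2AX, and on input chromatin. Cells were female or male, wild type (WT) or without the deacetylase SIRT7 (KO), and every labelled sample had received 5 Gy of X-rays with 30 min of recovery, so no unirradiated control enters any value. The 12 groups held 2 libraries each, 24 in all, and the labels did not say whether the 2 came from separate cultures or embryos, so that p-values measure only the spread between these libraries. How many embryos gave the cells, and the nature of the Sirt7 allele, were not stated in the labels. The bin that holds Sirt7 did not show the KO in input DNA, with a log2 KO/WT of 0.0059 in females (edgeR adjusted p = 0.987) and -0.0016 in males (adjusted p = 0.995), a check that a 100 kb bin may be too wide to give. Reads on chromosome X came to 6.27% to 6.31% of autosomal reads in female input and 3.45% to 3.47% in male input, and so matched the labelled sexes. Libraries held between 66.9 M and 269 M reads, with a median of 2182 to 9280 reads per member bin.

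Common fragile sites are stretches of chromosome that show gaps and breaks in metaphase when replication is mildly slowed. Many of them hold a single very long gene with few replication origins, where transcription and replication can still be under way late in S phase. gH2AX is H2AX phosphorylated by the kinases ATM, ATR and DNA-PK, and it spreads over long stretches of chromatin on both sides of a double-strand break. Its level at a locus is therefore read here against input DNA and against total H2AX.

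The stretch just before a gene shows where its transcription starts relative to the bins, and RefSeq promoters (GRCm38.p6) were found for 4 of the 8 genes. For 3 of them the bases that lie outside the annotated gene are shown, 5′ to 3′ on the strand of the gene, with CpG in capitals. The Macrod2 stretch is at chr2:140395180-140395302 (+ strand), in the single member bin that passed the KO test in females, the Immp2l stretch is at chr12:41023840-41024060 (+ strand), and the Fhit stretch is at chr14:11162062-11162285 (- strand).
Macrod2: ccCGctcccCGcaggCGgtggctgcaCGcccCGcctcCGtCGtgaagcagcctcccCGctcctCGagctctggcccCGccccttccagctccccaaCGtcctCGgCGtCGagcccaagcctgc
Immp2l: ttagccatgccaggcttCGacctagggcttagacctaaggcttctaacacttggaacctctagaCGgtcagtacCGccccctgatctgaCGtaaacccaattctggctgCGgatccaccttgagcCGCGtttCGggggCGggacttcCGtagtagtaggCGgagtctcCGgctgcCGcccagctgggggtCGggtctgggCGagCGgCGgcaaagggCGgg
Fhit: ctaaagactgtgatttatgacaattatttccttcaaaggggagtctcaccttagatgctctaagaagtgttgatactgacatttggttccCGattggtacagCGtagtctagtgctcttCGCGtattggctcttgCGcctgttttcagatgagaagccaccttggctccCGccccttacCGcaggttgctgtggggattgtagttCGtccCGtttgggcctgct
The Macrod2 stretch of 123 bases held 14 CpG, a number reached by 6.22% of the 32851 promoters of the table in a window of the same length (CG, which reads the same on both strands). Immp2l held 18 CpG in 221 bases, reached by 16.3% of promoters, and Fhit held 9 in 224 bases, reached by 36.3%. The Fhit gene starts at its high-coordinate end, so its profile below runs against the direction of transcription, while those of Macrod2 and Immp2l run with it.

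Averaged over the sexes and genotypes, the 8 genes did not share one level of gH2AX. Of the 126 bins, 22 were higher and 81 lower in gH2AX than in input (edgeR quasi-likelihood test, Benjamini-Hochberg adjusted p under 0.05 over 25703 bins), which is 81.7% of the member bins where 86.7% of all bins tested were called, 41.5% higher and 45.2% lower. The median log2 gH2AX/input was -0.07 in the member bins, -0.02 in their flanks and -0.01 in all bins. For H2AX against input, 33 bins were higher and 78 lower, 88.1% against 89.4% of all bins (44.9% higher and 44.5% lower), with a median of -0.11. For gH2AX against H2AX, 59 were higher and 36 lower, 75.4% against 75.1% of all bins (38.5% higher and 36.6% lower), with a median of 0.03. Counted in either direction, the shares called were near those of all bins, while by direction the member bins were mostly lower in gH2AX/input and H2AX/input, where all bins were split about evenly.

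**Figure D1:**
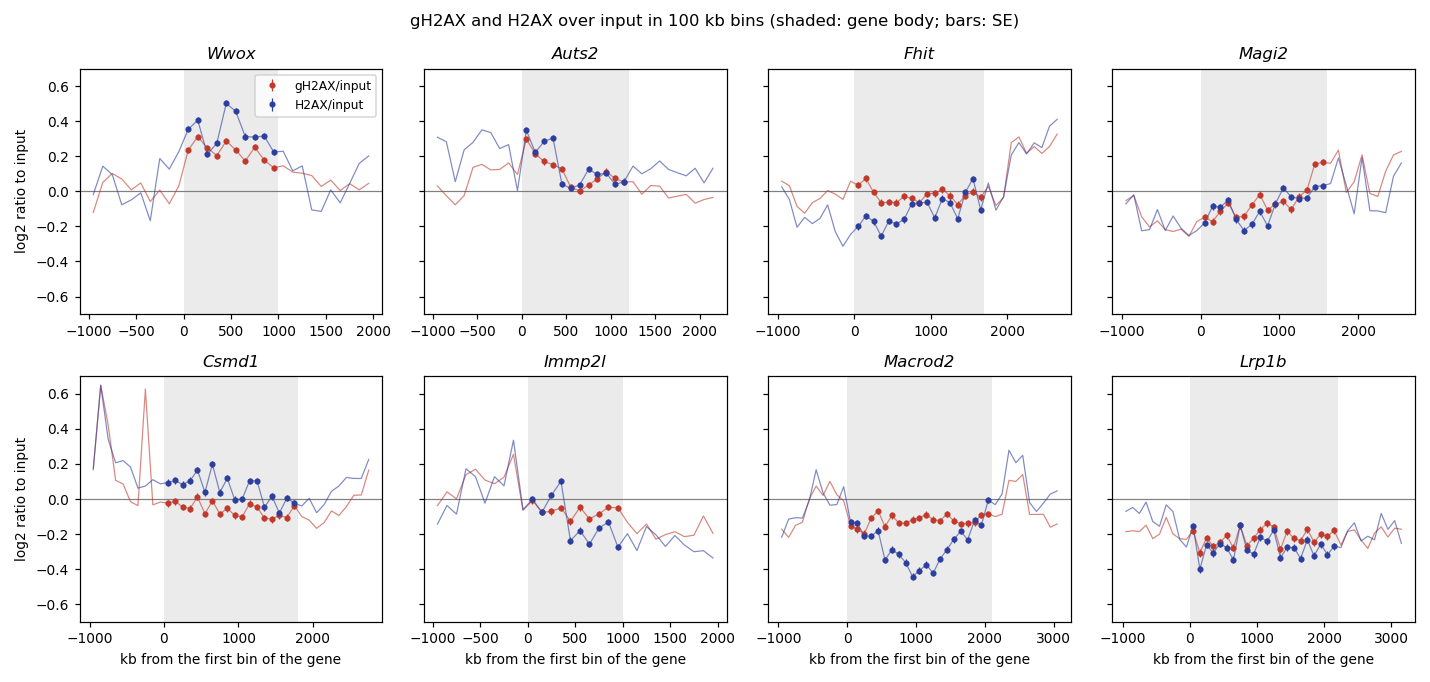
Log2 ratio to input of gH2AX (red) and H2AX (blue) in 100 kb bins along each of the 8 genes and 10 flanking bins on each side, against the distance in kb from the first bin of the gene. Points with bars are member bins with their SE, lines without points are flanks; Wwox stood above 0 over its whole body, Lrp1b stood below 0, and H2AX in Macrod2 dipped to -0.44 in the middle of the gene while gH2AX did not.

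Taken gene by gene, the mean of log2 CPM over the bins of a body (CPM, the reads of a bin scaled to the autosomal reads of its library with TMM factors) set the genes in an order from Wwox at 0.23 to Lrp1b at -0.22 in gH2AX/input. Auts2 followed Wwox at 0.11, then came Fhit at -0.02, Magi2 and Csmd1 at -0.06, Immp2l at -0.07 and Macrod2 at -0.12. The ranges over the 4 sex and genotype groups separated Wwox from Auts2 and Auts2 from Fhit, while each of the other neighbours in this order overlapped the next. The bodies were tested with limma among the 444 protein-coding genes that overlap at least 5 bins. In gH2AX/input, 2 of the 8 bodies were higher and 6 lower, where 90.8% of the 444 were called, 38.1% higher and 52.7% lower. In H2AX/input, 3 bodies were higher and 5 lower (96.4% of the 444 called, 44.8% higher and 51.6% lower). In gH2AX/H2AX, 5 were higher and 3 lower (86.5% called, 42.8% higher and 43.7% lower).

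Against their own flanks, 2 of the 8 bodies were higher and 6 lower in gH2AX/input by limma, where 87.8% of the 444 long genes were called, 30.4% higher and 57.4% lower. In H2AX/input, 1 was higher and 6 were lower (90.5% of the 444 called, 38.3% higher and 52.3% lower), and in gH2AX/H2AX, 4 were higher and 3 lower (79.5% called, 34.9% higher and 44.6% lower). Such a difference depends on the flanks as much as on the gene. The flanks differed in gene content, whose part in the differences was not tested: of 20 flanking bins, 18 held no protein-coding gene beside Lrp1b but only 6 beside Macrod2. The direction of Wwox in all 3 ratios was the same under every choice of flank and every library left out, and so was that of Lrp1b in all 3 ratios and of Macrod2 in H2AX/input and gH2AX/H2AX. For Fhit, Magi2 and Immp2l, and in some of the ratios for Auts2, Csmd1 and Macrod2, the direction turned with the flank chosen, as given with each gene.

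Wwox, which encodes a WW-domain oxidoreductase lost in many tumours, lies at chr8:114439635-115352712 and spanned 10 bins. Its body level over the 8 libraries of each kind was 39.9 to 42.6 CPM per bin for gH2AX (median 41.5), 43.6 to 46.3 for H2AX (median 44.6) and 35.0 to 35.8 for input (median 35.5). All gH2AX libraries lay above all input libraries, and all H2AX libraries above all gH2AX libraries. The body log2 gH2AX/input was 0.23 ± 0.0073 (SE, adjusted p = 1.42e-24), H2AX/input was 0.34 ± 0.0073 and gH2AX/H2AX was -0.11 ± 0.0073, at the 94.6, 93.0 and 16.9 percentiles of the 444 long genes. Within the gene, gH2AX/input peaked in the second bin, chr8:114500001-114600000, at 0.31 and was lowest in the last at 0.13. H2AX/input rose to 0.50 in the fifth bin, chr8:114800001-114900000, and gH2AX/H2AX was lowest in the sixth at -0.22 and highest in the third at 0.04. Against its flanks the body was 0.19 higher in gH2AX/input and 0.28 higher in H2AX/input, and lower in gH2AX/H2AX (-0.09, adjusted p = 1.90e-12). The first bin also holds part of Clec3a, which its value cannot be told from.

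Fhit, a diadenosine triphosphate hydrolase and tumour suppressor, lies at chr14:9550092-11162061 and spanned 17 bins. Its gH2AX level was 34.7 to 36.2 CPM (median 35.8), H2AX was 33.1 to 33.7 (median 33.5) and input 35.8 to 36.6 (median 36.2). The H2AX libraries all lay below the gH2AX libraries, which overlapped input. The body ratios were -0.02 for gH2AX/input (adjusted p = 0.00135), -0.11 for H2AX/input and 0.09 for gH2AX/H2AX. gH2AX/H2AX was 0.23 in the first bin at the low-coordinate end, which is the 3′ end of the gene, and fell to -0.07 in bin 16, near its start. H2AX/input ran the other way, from -0.26 in the fourth bin to 0.07 in bin 16, while gH2AX/input stayed between -0.08 and 0.07. Set against its flanks the body was lower in gH2AX/input (-0.10) and H2AX/input (-0.13) and higher in gH2AX/H2AX (0.03). The flanks were unequal, with a median gH2AX/input of -0.03 on the low side and 0.24 on the high side, where Ptprg lies. With flanks that hold no protein-coding gene the 3 differences became 0.01, 0.04 and -0.02, and with 5 flanking bins a side gH2AX/H2AX became -0.02.

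Lrp1b, a giant receptor of the LDL receptor family, lies at chr2:40595290-42653598 and spanned 22 bins. Its gH2AX level was 29.1 to 32.9 CPM (median 31.4), H2AX was 29.7 to 30.3 (median 29.9) and input 35.4 to 36.8 (median 36.2). Both antibodies lay below input in every library, and the gH2AX libraries spread about H2AX on both sides. The body was at -0.22 ± 0.0068 (SE, adjusted p = 5.71e-25) in gH2AX/input and -0.27 ± 0.0068 in H2AX/input, the 7.2 and 10.6 percentiles of the 444 long genes, and at 0.06 in gH2AX/H2AX. All 22 bins were lower than input in gH2AX (-0.31 in the second bin, chr2:40600001-40700000, to -0.14 in bin 12) and in H2AX (-0.40 to -0.15). Its 20 flanking bins were low in gH2AX as well, all 20 called lower with a median of -0.19, so that the body differed from them by only -0.02 (adjusted p = 0.0107), and this call was lost with 5 flanking bins a side (-0.0080, adjusted p = 0.383), with medians over bins (-0.02, adjusted p = 0.101) and without the first male KO gH2AX library (-0.015, adjusted p = 0.0586). In H2AX/input the body differed from the flanks by -0.12 and in gH2AX/H2AX by 0.10, the 93.7 percentile of the 444.

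Csmd1, a transmembrane protein with many CUB and sushi domains that restrains complement, lies at chr8:15892538-17535385 and spanned 18 bins. The gH2AX level over its libraries was 32.2 to 34.0 CPM (median 33.2), H2AX was 35.3 to 36.6 (median 36.1) and input 34.0 to 35.0 (median 34.6). All H2AX libraries lay above all input libraries, and gH2AX lay below both except for an overlap of the highest library with input. The gene was thus higher in H2AX than in input (0.06) and lower in gH2AX than in input (-0.06), with gH2AX/H2AX at -0.12. Of its bins, 16 of 18 were called lower in gH2AX/H2AX, to -0.21 in the seventh bin, chr8:16400001-16500000. gH2AX/input was between -0.12 and 0.01. The body was below its flanks in gH2AX/input under every flank choice run (-0.13 with 10 bins a side), and in gH2AX/H2AX (-0.06), which became 0.0075 with medians over bins in place of means. The H2AX/input difference of -0.08 became 0.02 with 5 flanking bins a side. On the low side the third bin from the gene was at 0.63 in gH2AX/input and 0.55 in gH2AX/H2AX, while the ninth, at 0.65 in gH2AX/input, was at -0.00020 in gH2AX/H2AX.

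Macrod2, an enzyme that removes mono-ADP-ribose from proteins, lies at chr2:140395303-142392966 and spanned 21 bins. Its gH2AX level was 35.2 to 36.5 CPM (median 35.8), H2AX was 32.2 to 32.9 (median 32.7) and input 38.4 to 39.7 (median 39.0). The 3 kinds of library did not overlap. The body was at -0.12 in gH2AX/input and at -0.26 in H2AX/input, and its gH2AX/H2AX of 0.13 ± 0.0063 (SE, adjusted p = 1.00e-19) was the highest of the 8 genes, above Fhit in every sex and genotype group. H2AX/input formed a trough: it was -0.13 in the first bin, fell to -0.44 ± 0.018 (SE) in the tenth, chr2:141200001-141300000, and returned to -0.01 in the last. gH2AX/input stayed between -0.20 and -0.07 over the whole gene. In the tenth bin the 8 H2AX libraries held 27.5 to 30.8 CPM, the gH2AX libraries 36.1 to 38.7 and the input libraries 40.1 to 41.2, with no overlap, and gH2AX/H2AX reached 0.33 (adjusted p = 5.41e-42). Against its flanks, Macrod2 was lower in H2AX/input (-0.27) and higher in gH2AX/H2AX (0.19), and no long gene of the 444 had a larger gH2AX/H2AX difference from its flanks (the 100 percentile). The gH2AX/input difference of -0.08 became 0.0021 with flanks that hold no protein-coding gene. The first bin lies mostly before the gene and also overlaps Sel1l2, and the fourth overlaps Flrt3.

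**Figure D2:**
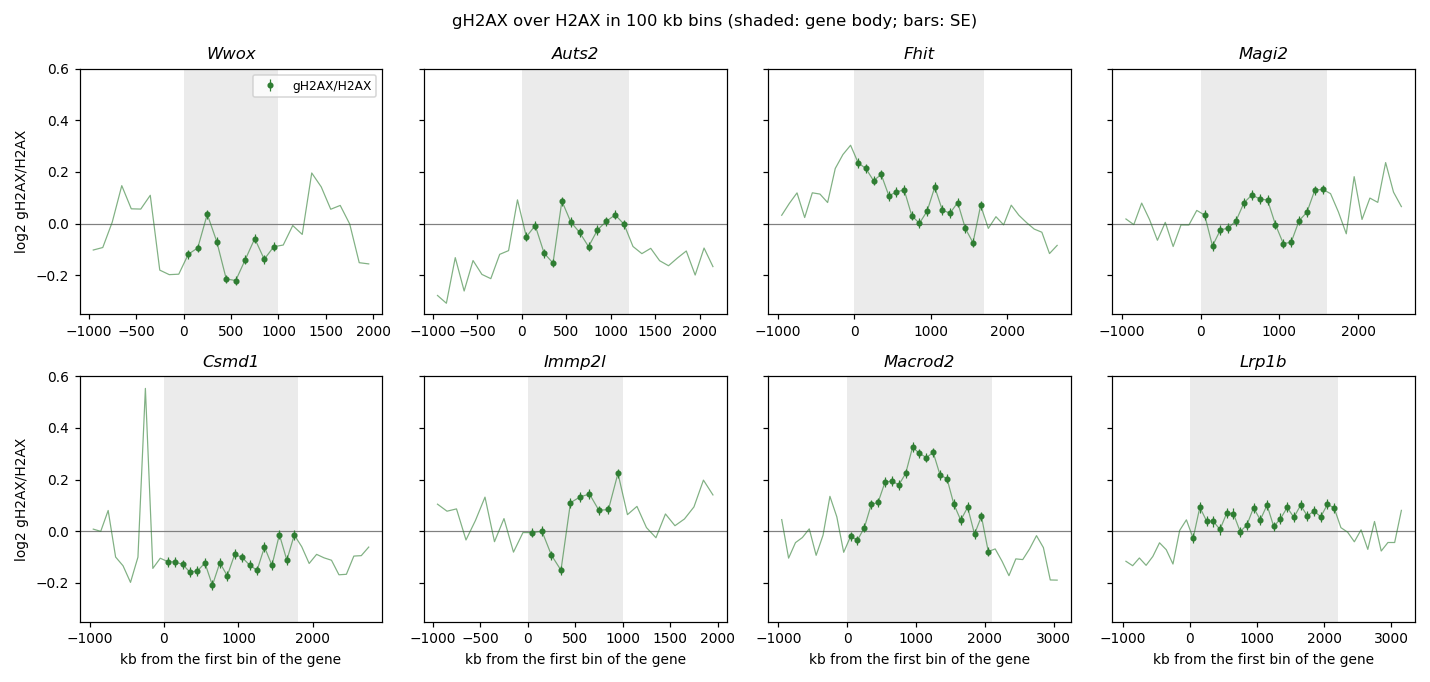
Log2 gH2AX/H2AX in 100 kb bins along the 8 genes and their flanks, against the distance in kb from the first bin of the gene; points with bars are member bins with their SE, and lines are flanks. Macrod2 rose to 0.33 in mid-gene, Fhit fell from 0.23 to -0.07, Csmd1 stayed below 0, and 1 flanking bin of Csmd1 stood at 0.55.

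Magi2, a scaffold protein of cell junctions, lies at chr5:19219387-20704792 and spanned 16 bins. Over its body gH2AX was 34.7 to 36.1 CPM (median 35.3), H2AX was 33.4 to 35.5 (median 34.7) and input 36.3 to 37.3 (median 36.7). Both antibodies lay below input in every library and overlapped each other. The body was at -0.06 in gH2AX/input, -0.09 in H2AX/input and 0.03 in gH2AX/H2AX. gH2AX/input changed along the gene, from -0.17 in the second bin to 0.17 in the last, chr5:20700001-20800000, a bin shared with Phtf2 and Gm52806. Of that last bin, only the stretch up to position 20704792 lies in Magi2, so its value is mostly that of sequence beyond the gene. The flanks continued on either side, with a median of -0.19 on the low side and 0.14 on the high side. The differences of the body from its flanks were -0.03 in gH2AX/input, -0.01 in H2AX/input (adjusted p = 0.0788) and -0.02 in gH2AX/H2AX. They turned positive with 20 flanking bins a side in gH2AX/input (0.0031) and H2AX/input (0.03), with gene-free flanks in all 3 ratios (0.14, 0.11 and 0.03), and with 5 flanking bins a side in gH2AX/H2AX (0.0013). The gH2AX/H2AX call was lost without the first female KO, female WT or male WT library of H2AX, the first female KO, female WT or male WT library of gH2AX or the second male KO library of gH2AX (-0.017 to -0.016).

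Auts2, a nuclear protein that joins a Polycomb complex and is active in neurons, lies at chr5:131437333-132543220 and spanned 12 bins. The libraries held 38.8 to 40.7 CPM for gH2AX (median 39.8), 40.2 to 40.9 for H2AX (median 40.6) and 36.4 to 37.2 for input (median 36.8). Both antibodies lay above input in every library. The body was at 0.11 in gH2AX/input and 0.14 in H2AX/input, and gH2AX/H2AX was -0.03. gH2AX/input was highest in the first bin, chr5:131400001-131500000, at 0.30 and fell to 0.0021 in the seventh, where it did not differ from 0 (adjusted p = 0.913). H2AX/input was likewise highest in the first bin, at 0.35. The body stood 0.08 above its flanks in gH2AX/input, but -0.05 with 20 flanking bins a side, and 0.12 above them in gH2AX/H2AX, where it was above them under every choice run. The H2AX/input difference of -0.04 became 0.02 with gene-free flanks.

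Immp2l, a subunit of the peptidase of the mitochondrial inner membrane, lies at chr12:41024061-41955588 and spanned 10 bins. Its gH2AX level was 35.3 to 37.0 CPM (median 36.1), H2AX was 34.5 to 35.4 (median 34.9) and input 37.4 to 38.6 (median 37.9). gH2AX and H2AX both lay below input in every library, and 1 gH2AX library, the lowest, fell among the H2AX libraries. The body was at -0.07 in gH2AX/input, -0.12 in H2AX/input and 0.05 in gH2AX/H2AX. H2AX/input fell in a step, from 0.10 in the fourth bin to -0.24 in the fifth, which also holds Lrrn3, a gene nested in Immp2l, and was -0.27 in the last bin. gH2AX/input was between -0.13 and -0.0078, and gH2AX/H2AX went from -0.15 in the fourth bin to 0.22 in the last. The differences from the flanks were small: -0.02 in gH2AX/input and H2AX/input and -0.00067 in gH2AX/H2AX (adjusted p = 0.943). With 20 flanking bins a side the first pair became 0.06, and with gene-free flanks 0.10 and 0.11, so the direction of Immp2l against its surroundings turned with the flanks chosen. The gH2AX/input call was lost without the first library of female KO, female WT or male KO or the second of male WT in gH2AX, or without the first female KO or second male WT input library (-0.017 to -0.014). The H2AX/input call was lost without the second male WT H2AX library or without the first female KO, first female WT, first male KO or second male WT input library (-0.018 to -0.014). With bins wholly in the gene it was -0.013 (adjusted p = 0.139).

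**Figure D3:**
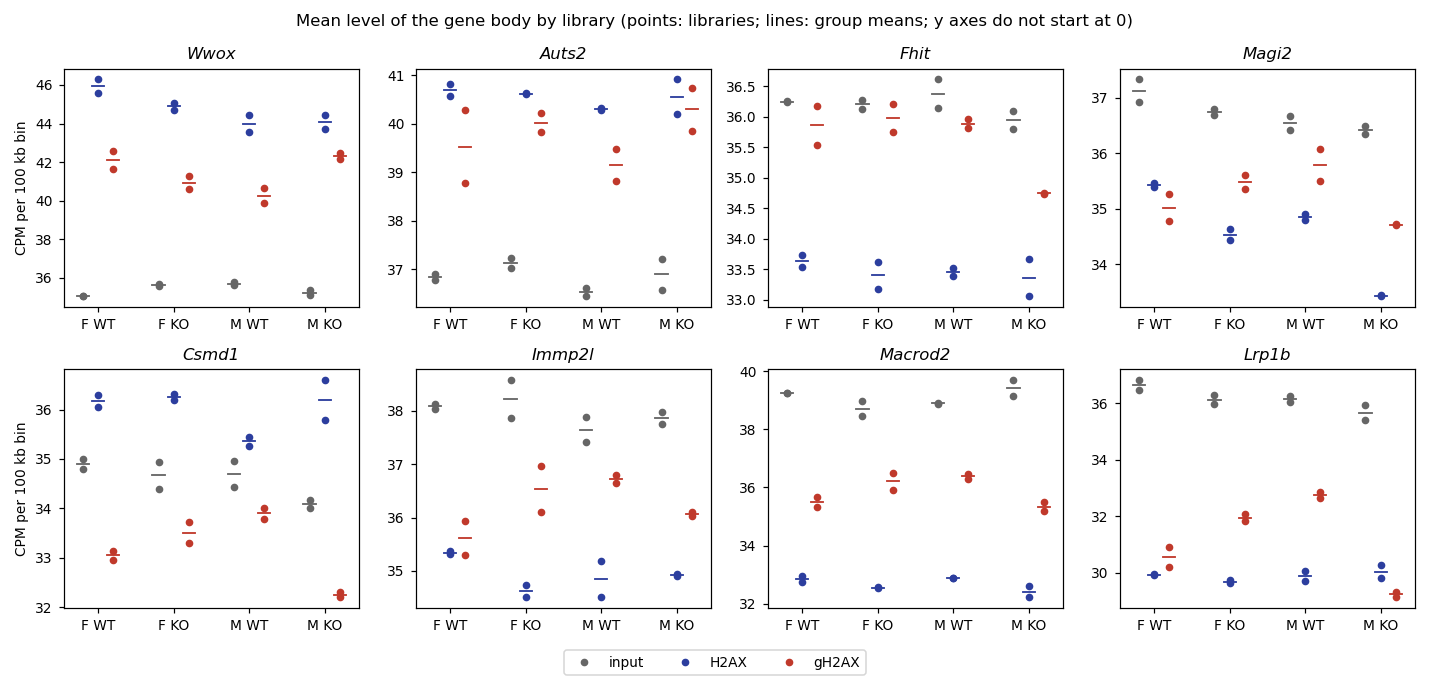
Body level (CPM per 100 kb bin, mean over bins taken on the log2 scale) of each of the 24 libraries for the 8 genes, by sex and genotype; points are libraries, lines are the means of 2. In males, gH2AX in Lrp1b fell from 32.7 and 32.9 in WT to 29.1 and 29.3 in KO, and in Wwox it rose from 39.9 and 40.7 to 42.2 and 42.5.

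The genotype comparison asks whether loss of SIRT7 changed these levels relative to the rest of the genome. Each library is scaled to its own autosomal reads, so a change shared by the whole genome would not show. In males, gH2AX was higher in KO in 6 and lower in 35 of the 126 bins (edgeR adjusted p under 0.05), 32.5% of the member bins where 44.7% of all bins were called, 22.4% higher and 22.2% lower. The member median was -0.05. In the flanks, 24 bins were higher and 42 lower of 160. The 35 lower bins were 20 of Lrp1b, 5 of Csmd1, 4 of Fhit, 3 of Macrod2 and 3 of Magi2, and the 6 higher bins were 4 of Wwox and 2 of Auts2. Immp2l had none. Without the second male KO gH2AX library the count was 27. When each library's smooth trend on the bin's mean gH2AX/input was removed, the count over the member bins was 1, in Fhit. For this and the later counts with the trend removed, the share of all bins called is not given. The drop can therefore not be read as particular to these genes.

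Lrp1b held 20 of the 41 bins called in males. Its gH2AX body level was 32.9 and 32.7 CPM in the 2 male WT libraries and 29.1 and 29.3 in the 2 male KO libraries, with no overlap. In females the WT libraries were at 30.2 and 30.9 and the KO libraries at 31.8 and 32.1, again apart but in the other direction. The log2 KO/WT was -0.16 ± 0.016 in males (limma adjusted p = 6.01e-10, n = 2 and 2) and 0.06 ± 0.016 in females (adjusted p = 0.00859). The female call was lost without the second female KO library (0.06, adjusted p = 0.139) or the first female WT library (0.05, adjusted p = 0.146), and with medians over bins (0.06, adjusted p = 0.0810). All 22 bins were below 0 in males, from -0.24 in bin 14, chr2:41800001-41900000, to -0.07 in the fifth bin, and the flanks had a median of -0.12 with 16 of 20 bins called lower. After removal of the trend the median over the 22 bins was -0.04 and none was called. Input and H2AX did not move with it: in males Lrp1b changed by -0.02 in input (adjusted p = 0.376) and by 0.0075 in H2AX (adjusted p = 0.809).

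Wwox moved the other way in males. Its gH2AX level was 40.7 and 39.9 CPM in male WT and 42.5 and 42.2 in male KO, while female WT libraries were at 42.6 and 41.6 and female KO libraries at 41.3 and 40.6. The groups did not overlap in either sex. The change was 0.07 ± 0.016 in males (adjusted p = 1.32e-04) and -0.04 ± 0.016 in females (adjusted p = 0.0652). All 10 bins were above 0 in males: the first 4, between 0.10 and 0.13, were called, and the last 6, between 0.022 and 0.065, were not. With the trend removed the median over its bins was -0.03.

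Of the other genes in males, Csmd1 fell by 0.07 in body level (adjusted p = 9.30e-05), from 33.8 and 34.0 CPM to 32.3 and 32.2. Fhit fell by 0.05 (adjusted p = 0.00513), from 36.0 and 35.8 to 34.7 and 34.8, and its ninth bin, chr14:10300001-10400000, by 0.18 (edgeR adjusted p = 5.49e-05). Magi2 and Macrod2 each fell by 0.04 (adjusted p = 0.00871 and 0.0100) and Auts2 rose by 0.04 (adjusted p = 0.0209), while Immp2l was at -0.03 (adjusted p = 0.118). Libraries of the KO and WT males did not overlap in any of the 8 genes, which is easily reached with 2 libraries a group. The share of the 444 long genes without overlap was not counted, so this does not set the 8 genes apart. The calls of Magi2, Macrod2 and Auts2 rested on single libraries: Magi2 was at -0.04 (adjusted p = 0.0504) without the first male KO library and -0.03 (0.128) without the second male WT library, Macrod2 at -0.03 (0.0983) without the first KO library, -0.03 (0.189) with medians over bins and -0.04 (0.0671) without the first WT library, and Auts2 at 0.03 without the second KO (0.232) or the second WT library (0.209). Auts2 was also at 0.03 with medians over bins (0.254) or with bins wholly in the gene (0.138), and Fhit at -0.04 (0.148) with medians over bins. In all, 2 of 8 bodies were higher and 5 lower, where 71.8% of the 444 long genes were called, 31.1% higher and 40.8% lower.

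**Figure D4:**
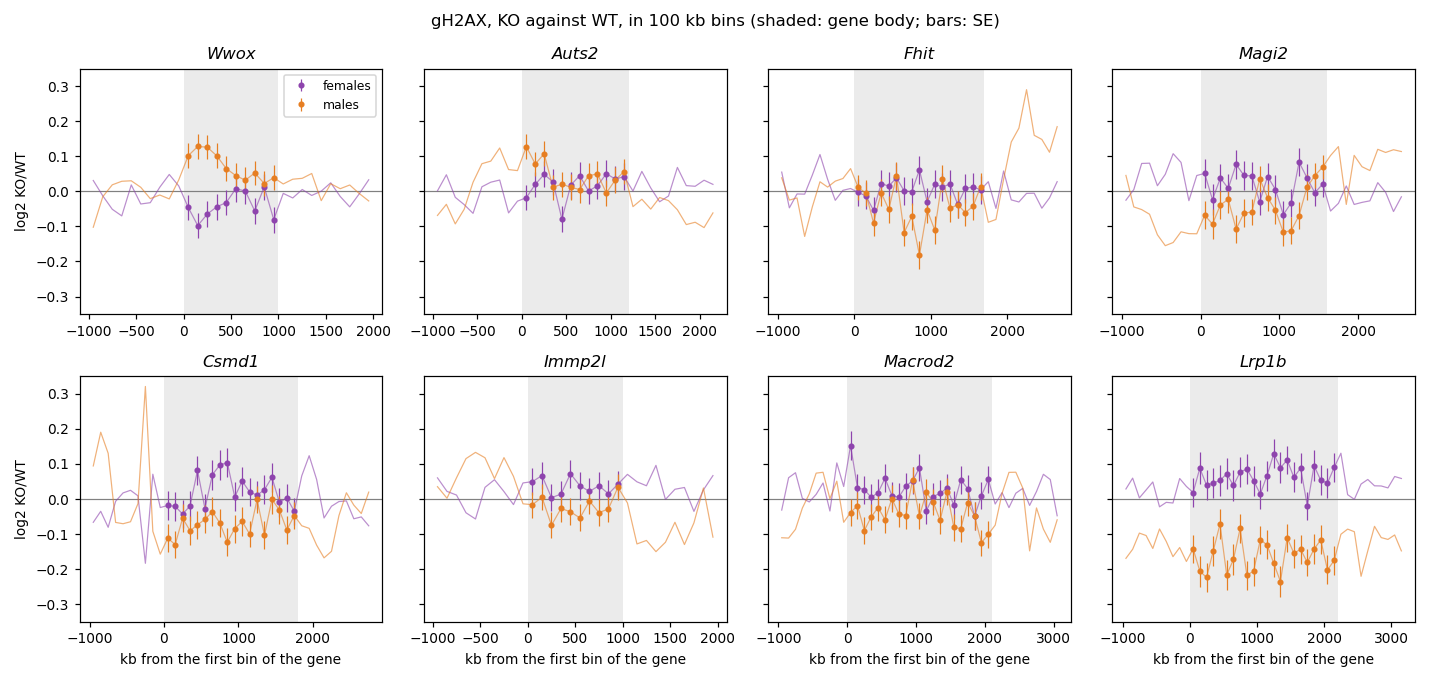
Log2 KO/WT of gH2AX in 100 kb bins along the 8 genes and their flanks in females (purple) and males (orange), against the distance in kb from the first bin; bars are SE. In Lrp1b the male values lay between -0.24 and -0.07 over all 22 bins while the female values lay between -0.02 and 0.13, and in Wwox the male values were above 0 in all 10 bins.

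In females, 1 of the 126 bins was called, 0.794% where 1.01% of all bins were called (0.416% higher and 0.595% lower). It was the first bin of Macrod2, chr2:140300001-140400000, which holds the start of the gene and part of Sel1l2. Most of this bin lies before the gene, which starts at position 140395303. gH2AX in the bin was 31.2 and 31.6 CPM in female WT and 34.8 and 34.9 in female KO, without overlap, a log2 change of 0.15 ± 0.041 (edgeR adjusted p = 0.0322). In males the same bin was at 34.9 and 33.3 CPM in WT and 33.2 and 33.3 in KO. The call was absent with the DESeq2 Wald test, with the trend removed, and without the second female KO or the first female WT library. By gene body, Lrp1b alone was called in females (19.4% of the 444 long genes), and Fhit (0.0050) and Auts2 (0.02) took the opposite sign when the first female WT library was left out, and Fhit also without the second female KO library. Wwox was called at -0.06 (adjusted p = 0.0276) without the second female WT library and Immp2l at 0.05 (0.0369) without the first female KO library.

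The KO effect on gH2AX differed between the sexes, as a test of the difference itself, in 37 of the 126 bins, 32 of them with the larger value in females. That is 29.4% where 40.5% of all bins were called, 20.1% with the larger value in females and 20.4% in males. With the trend removed, 1 bin was called, in Fhit. By gene body, the difference of female minus male was 0.23 for Lrp1b, 0.09 for Csmd1, 0.07 for Macrod2, 0.06 for Magi2 and Immp2l, 0.05 for Fhit and -0.11 for Wwox, all called by limma. Of the 444 long genes 73.4% were called, 43.7% with the larger value in females and 29.7% in males. For Auts2 it was -0.02 (adjusted p = 0.363), but -0.05 (0.0441) without the first female WT library. The Fhit difference lost its call without the second female KO, the first female WT or any 1 of the 4 male libraries (0.04 to 0.05). That of Immp2l was lost without the second female KO (0.04, adjusted p = 0.0956) or the first female WT library (0.05, 0.0595), and that of Magi2 without the second male WT library (0.05, 0.0627).

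No member bin was called for a KO change of H2AX or of input. For H2AX the count was 0 in both sexes (edgeR, where 0.152% of all bins were called in females, 0.0311% higher and 0.121% lower, and 0.191% in males, 0.105% higher and 0.0856% lower), with 7 bins in females and 9 in males at an unadjusted p under 0.05, and 0 by the DESeq2 Wald test. For input it was 0 in both sexes (0.183% of all bins in females, 0.0506% higher and 0.132% lower, and 0.222% in males, 0.0973% higher and 0.124% lower), with 6 bins at an unadjusted p under 0.05 in each sex and 0 by DESeq2. Input changes were between -0.11 and 0.07 in females and between -0.08 and 0.08 in males, sizes that overlap many of the gH2AX changes. By gene body, Magi2 H2AX was lower in KO males (-0.06, limma adjusted p = 0.0135, where 5.41% of the long genes were called): the 2 WT libraries were at 34.9 and 34.8 CPM and both KO libraries at 33.4. That call was not examined with libraries left out or under any other alternative.

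Set against input, the gH2AX change in KO males was called in 17 bins, 2 higher and 15 lower (13.5% where 19.6% of all bins were called, 10.8% higher and 8.79% lower). Set against H2AX it was called in 27, 2 higher and 25 lower (21.4% where 30.1% were called, 15.9% higher and 14.3% lower). With the trend removed these counts were 0 and 2, and without the second male WT or the second male KO input library the first count was 10 or 11. In females both counts were 0 (edgeR, 0.389% and 0.237% of all bins called, 12 and 20 member bins at an unadjusted p under 0.05, 0 by DESeq2). By gene body in females, limma called gH2AX/input higher in KO in Lrp1b (0.08, adjusted p = 0.00244) and Macrod2 (0.05, 0.0449) and lower in Wwox (-0.07, 0.0210), where 26.1% of the 444 long genes were called, 20.3% higher and 5.86% lower. It called gH2AX/H2AX higher in Lrp1b (0.08, adjusted p = 0.0103), Immp2l (0.07, 0.0196) and Magi2 (0.06, 0.0275), where 18.9% were called, 15.3% higher and 3.6% lower. These female body ratio calls were not examined with libraries left out or under any other alternative. In the main fit, gH2AX alone was called in females for Lrp1b only. By gene body in males, limma called gH2AX/input higher in Wwox (0.09) and lower in Lrp1b (-0.14), Macrod2 (-0.06) and Csmd1 (-0.05). Of the 444, 22.3% were called higher and 33.1% lower. gH2AX/H2AX was called higher in Wwox (0.07) and lower in Lrp1b (-0.17), Csmd1 (-0.11) and Fhit (-0.04), beside 30.9% and 35.8% of the 444. Magi2, Auts2 and Immp2l were called in neither, and Magi2 was at 0.02 in gH2AX/H2AX. No alternative was examined for these male calls. Measured as body over flank, gH2AX/input changed in KO males in 3 genes where 27% of the 444 were called (12.2% higher and 14.9% lower): Wwox rose by 0.08 (adjusted p = 0.00801), Fhit fell by 0.09 (adjusted p = 0.00216) and Csmd1 fell by 0.06 (adjusted p = 0.0220). None of the 3 was called when medians over bins took the place of means (0.06, -0.05 and -0.02). With 5 flanking bins a side Fhit was at -0.06 (adjusted p = 0.0781) and Csmd1 at -0.02 (0.548), and with gene-free flanks Fhit was at -0.02 (0.689) and Csmd1 at -0.03 (0.419). Lrp1b, which changed most in its body, changed by -0.03 against its flanks (adjusted p = 0.221). Csmd1 lost its call without any 1 of 4 male libraries (-0.06 without the first gH2AX KO, the second gH2AX WT or the first input KO library and -0.05 without the first input WT library) and Wwox without the second male WT library of gH2AX or of input (0.07 in both cases). In females 0 of the 8 genes were called by limma (3.15% of the 444).

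**Figure D5:**
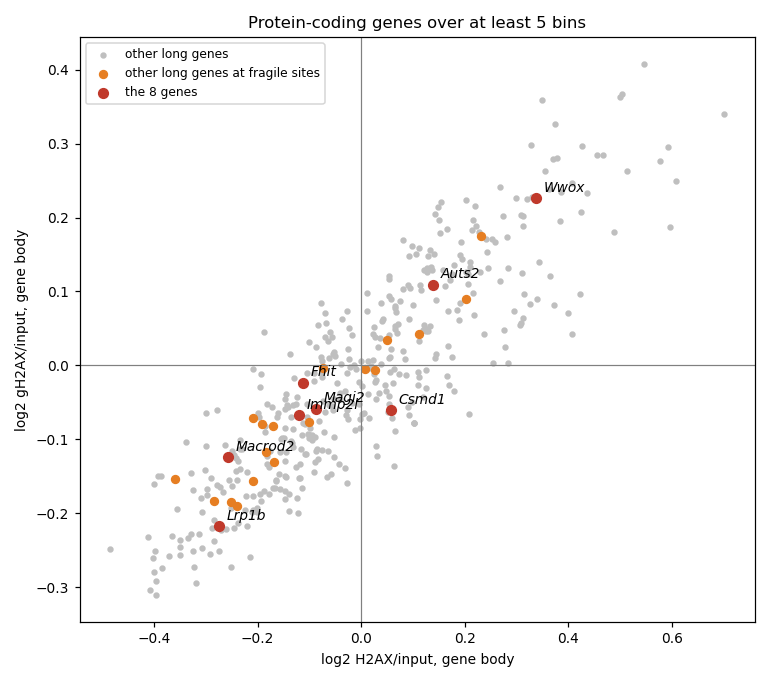
Body log2 gH2AX/input against body log2 H2AX/input for the 444 protein-coding genes that overlap at least 5 bins (grey), with the 8 genes in red and 18 other long genes at fragile sites in orange. The 8 genes range from Lrp1b at -0.27 and -0.22 to Wwox at 0.34 and 0.23; Csmd1 is the 1 gene of the 8 with H2AX above 0 and gH2AX below 0.

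A further 18 long genes at common fragile sites were measured in the same way. They were chosen as a list from general knowledge, with earlier results of these data known. Their gH2AX bodies were higher than input in 4 and lower in 11 (of the 444 long genes 38.1% were higher and 52.7% lower), with a median of -0.08 beside -0.06 for the 8 genes and -0.03 for the 444 long genes. Against the flanks, Rora (0.12) and Naaladl2 (0.05) were among the highest and Cntnap2 (-0.17) and Exoc4 (-0.14) among the lowest in gH2AX/input. In KO males, gH2AX was higher in 4 and lower in 10 bodies (31.1% and 40.8% of the 444), the largest changes being those of Dpyd (-0.12), Ccser1 and Il1rapl1 (-0.11 each). Lrp1b at -0.16 changed more than any of the 18, as a description with no test of the difference. The long genes whose 3 body ratios lay nearest to those of Wwox were Rere, Snd1 and Cacna1c (Euclidean distances of 0.011 to 0.030), and nearest to Lrp1b were Zfp804b, Grm5 and Rit2 (0.012 to 0.021).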

How the data were processed

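ChIP-seq of H2AX, gH2AX and input in 24 libraries was analysed from the table the authors deposited, which holds raw read counts per 100 kb bin. The build was mm10, and the tools listed, per the submitters' processing notes, are MACS2 2.2.7.1, SAMtools 0.1.19, Bowtie2 2.2.9, FastQC 0.11.3, deepTools 2.4.2 and Trimmomatic 0.36. The role of each, and the handling of duplicates and of reads with several alignments, are not given in the sources used here. A further 24 columns that match no labelled sample were left out. Bins on chromosomes 1 to 19 and X that passed filterByExpr were fitted with edgeR 4.0.16 (R 4.3.3), with TMM factors from autosomal bins, a mean per group and the two-sided quasi-likelihood F test. Ratios came from a fit of all 24 libraries and KO against WT from the 8 libraries of an antibody. The p-values were adjusted by Benjamini and Hochberg's method across every bin tested, and the SE of a bin was taken from its change and F statistic.

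Gene bodies and body over flank (10 bins a side) were tested with limma 3.58.1 on mean log2 CPM per library, over the 444 protein-coding genes that overlap at least 5 bins. The mean of log2 CPM was used for the body KO change in place of summed counts, for which edgeR gave no usable test. Gene spans are those of RefSeq on GRCm38.p6. The DESeq2 1.42.0 Wald test, DESeq2 size factors, no filter, a replicate block, single libraries left out, bins wholly in the gene, other flanks, medians over bins and fits with the trend on enrichment taken out of each library were tried as alternatives. The tests were checked on simulated counts of independent bins that held known changes but no trend on enrichment. That check does not bear on results that depend on the trend.

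All 8 genes are named, each with its highest and lowest bins. Of the 18 other genes, the 3 highest and 3 lowest in gH2AX/input against their flanks and the 3 largest KO changes in males are named, and the 3 genes nearest in the body ratios to the highest and to the lowest of the 8. Some genes that this rule picks are not reported here. The genes and lists were chosen with earlier results of these data known. Replicates of a group differed by more than counting error (chi-square per degree of freedom 2.58 to 3.90).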

Additional observations from a re-analysis of the deposited data

Results flagged for a closer look

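The KO effect on gH2AX differed between females and males, by the interaction test, in 37 of the 126 member bins, where 40.5% of all bins were called. By gene body the difference, female minus male on the log2 scale, was 0.23 for Lrp1b, -0.11 for Wwox, 0.092 for Csmd1, 0.070 for Macrod2, 0.063 for Magi2, 0.062 for Immp2l and 0.052 for Fhit. Of the 444 long genes 73.4% were called by limma, 43.7% with the larger value in females and 29.7% in males. In Lrp1b both sexes moved, with the 2 KO libraries below the WT libraries in males and above them in females, and in Wwox the KO libraries lay above in males and below in females, where the change alone was not called. The male and female effects share no library. With each library's trend on enrichment removed, 1 of the 126 bins was called, and the median difference over the bins of Lrp1b was 0.06 in place of 0.23. With medians over bins in place of means, tried after the data were seen, Macrod2 (0.052, adjusted p = 0.130), Immp2l (0.066, 0.0936) and Fhit (0.053, 0.148) were no longer called by limma. The 7 gene values rest on 2 libraries a group, and whether sex or the particular cultures set the difference cannot be told apart.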

How the results depend on the processing

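Counts of called member bins were within 1.5 times the main count under every alternative run for the 3 ratios, for H2AX and input, and for gH2AX/H2AX in females. With the trend on enrichment removed, the counts in males moved from 41 to 1 for gH2AX, from 17 to 0 for gH2AX/input and from 27 to 2 for gH2AX/H2AX, and the sex difference from 37 to 1. The share of all bins called in those fits is not given, so these moves cannot be set against the rest of the genome. The single gH2AX call in females became 0 with the trend removed and with the DESeq2 Wald test. Counting only bins wholly in the gene also gave 0, which was fixed in advance, since the called bin lies only partly in Macrod2. Single libraries left out gave 27 to 34 bins for gH2AX in males, 0 to 1 in females, 10 to 14 for gH2AX/input in males and 0 to 1 in females, and 1 to 4 genes for the male change of gH2AX/input over flank, which was 0 genes with medians over bins. Trend removal was not run for input.

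With the replicate block, bins called for gH2AX in males were 44, the sex difference 39, gH2AX/input in males 18, gH2AX/H2AX in males 31, gH2AX in females 1, and 104, 111 and 95 for the 3 ratios; counts of genes over flank were 8, 7, 7, 3 and 0. The block changed 1 gene call, Wwox in females (-0.04, adjusted p = 0.0304). Deviations of same-numbered libraries correlated between -0.03 and 0.06 over 18 pairs of groups, so the numbers were not taken as pairing.

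Directions of body over flank turned as follows. In gH2AX/input, 20 flanking bins a side gave -0.048 for Auts2, 0.0031 for Magi2 and 0.057 for Immp2l, medians gave 0.025 for Immp2l, and gene-free flanks gave 0.014 for Fhit, 0.14 for Magi2, 0.10 for Immp2l and 0.0021 for Macrod2. In H2AX/input, 5 bins a side gave 0.015 for Csmd1, 20 bins gave 0.028 for Magi2 and 0.057 for Immp2l, medians gave 0.024 for Immp2l, and gene-free flanks gave 0.021 for Auts2, 0.037 for Fhit, 0.11 for Magi2 and 0.11 for Immp2l. In gH2AX/H2AX, 5 bins a side gave -0.018 for Fhit, 0.0013 for Magi2 and 0.025 for Immp2l, 20 bins gave 5.6e-05 for Immp2l, medians gave 0.0075 for Csmd1 and 4.6e-04 for Immp2l, and gene-free flanks gave -0.022 for Fhit and 0.030 for Magi2. Single libraries left out gave -0.0049 to 0.0036 for Immp2l in gH2AX/H2AX, -0.0086 to 0.016 for Fhit and -0.010 to 0.043 for Auts2 in the female body change, and -0.054 to 0.00013 for the Auts2 sex difference. The cause of these changes was not tested. With 2 libraries a group and 2182 to 9280 reads a bin, spread between libraries and not counting limits the precision.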
